A study of Mus musculus with 24 samples.

Results

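The genes described here encode the machinery of oxidative phosphorylation. They were chosen by name: the 104 protein-coding genes, of 17017 genes in each deposited table, whose symbols mark subunits of respiratory complexes I to IV, of ATP synthase, or the mitochondrially encoded subunits. By complex these were 37 genes of complex I, 8 complex I assembly factors that share the Ndufaf prefix, 4 of complex II, 9 of complex III, 16 of complex IV (Ndufa4 and the supercomplex factor Cox7a2l included), 17 of ATP synthase and 13 on the mitochondrial genome, so that 91 were nuclear. A gene was tested if it reached 1 TPM in at least 3 libraries, which 103 of these genes and 13215 genes in all did. The untested gene was Ndufaf2, an assembly factor of complex I, which lay between 0.414 and 0.666 TPM in all 24 libraries.

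The cells were primary alveolar macrophages, the resident phagocytes of the air spaces, from wild-type BALB/cJ mice, and RNA was taken 20 h after stimulation. There were 8 groups of 3 libraries: untreated, IL-13, IL-17A, IL-13+IL-17A, IL-33, IL-33+IL-17A, IL-33+IL-13 and IL-33+IL-13+IL-17A, each cytokine added as the recombinant protein. IL-13 was thus present in 12 libraries and absent from 12. The labels do not tell whether replicate libraries are different mice or cultures or the same RNA, so a p-value here reflects library-to-library spread that could be technical.

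Complex I takes electrons from NADH and complex II from succinate, and both pass them through ubiquinone to complex III, then by cytochrome c to complex IV, where oxygen is reduced. The proton gradient built on the way drives ATP synthase. Most subunits are made from nuclear genes and imported into the organelle, while a small core set is made inside it from mitochondrial DNA, so the complexes need products of both genomes. Alveolar macrophages are known to rely strongly on lipid and oxidative metabolism, and IL-13 signals through the IL-4 receptor alpha chain and STAT6 to set alternative activation.

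Reads in the 17017 deposited genes, recovered from the deposited TPM, numbered 9.13 to 12.89 M per library. Reads outside these genes are not known, and shares of reads given below are shares of these. The label of the cells was checked against 12 alveolar macrophage markers, whose summed level was 3489 to 3785 TPM in the 12 libraries without IL-13 and 10372 to 13118 TPM in the 12 with it. Siglecf, Itgax and Pparg were present throughout, whereas Marco was at most 0.799 TPM and Car4 at most 2.72 TPM. Siglecf moved against the sum, from 486 to 548 TPM without IL-13 to 257 to 314 TPM with it. The rise of the sum lay largely in Chil3, at 364 to 384 TPM without IL-13 and 3964 to 5317 TPM with it, and in Ear2. Markers of other cells were low: 3 fibroblast markers summed to at most 6.32 TPM, 4 endothelial ones to at most 12.4 TPM and 5 epithelial ones to at most 49.1 TPM, most of that Cdh1, with Krt8 at most 0.516 TPM. Granulocyte markers summed to 139 to 180 TPM without IL-13 and 69.7 to 130 TPM with it, and those of monocytes and interstitial macrophages to 54.8 to 71.3 TPM and 56.7 to 74.1 TPM. The part of these shifts in the results below was not tested, and in bulk RNA a change in the number of cells of a type cannot be told apart from a change in RNA per cell.

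Promoter sequence was looked at because the nuclear genes moved together with IL-13, as described below. RefSeq starts on GRCm38.p6 were matched by symbol for 74 of the 91 nuclear genes, and the 250 bases before the most upstream listed start were searched on both strands. For only 30 genes did this window lie outside the deposited gene and within 100 bases of it. The counts below hold all 74. The motif read by nuclear respiratory factor 1 (NRF1), a regulator of many mitochondrial genes, taken as GCGC and TGCGC with any base between them, was found in 13 of 74 promoters (17.6%), against 9.32% of 8906 promoters of tested genes and 3.87% of 27025 promoters in all. It stood in 12 of the 52 promoters of genes that rose with IL-13 and in 1 of the 21 of tested genes that did not. CCGGAAG, the core read by ETS factors such as GABP, was in 13 of 74 (17.6%) against 15.2% of tested genes, and TTC and GAA with any 4 bases between them, a STAT6 motif, was in 3 of 74 (4.05%) against 4.47%. The E-box CACGTG, read by MYC among others, was in 6 of 74 (8.11%) against 8.98%, AAGGTCA, read by estrogen-related receptors, in 5 of 74 (6.76%) against 2.69%, and the YY1 motif in 0 of 74 against 0.550%. In the same 52 and 21 promoters the ETS motif stood in 10 and 3, the STAT6 motif in 3 and 0 and the E-box in 5 and 1. The motif of estrogen-related receptors stood in 3 and 2 and that of YY1 in 0 and 0. No split was tested. The same split was not made over all 8906 promoters of tested genes, so these counts have no rate for genes in general beside them. These are matches of letters only, and no match says only that the letters are not in that window.

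Of the promoters whose window lay outside the deposited gene, 4 of genes called higher with IL-13 are shown as examples. They belong to an assembly factor, a complex I subunit, a complex II subunit and the ATP synthase c-ring gene with the largest change of its complex. NRF1 matches are more frequent among them than in all promoters of genes that rose (12 of 52). Each is printed 5′ to 3′ on the strand of its gene, and capitals mark a match to the NRF1, ETS or E-box motif. Atp5g3 also holds a match to the motif of estrogen-related receptors, which is left in lower case.
Ndufaf4, chr4:24897833-24898082, plus strand, 1 NRF1 match:
Ndufaf4: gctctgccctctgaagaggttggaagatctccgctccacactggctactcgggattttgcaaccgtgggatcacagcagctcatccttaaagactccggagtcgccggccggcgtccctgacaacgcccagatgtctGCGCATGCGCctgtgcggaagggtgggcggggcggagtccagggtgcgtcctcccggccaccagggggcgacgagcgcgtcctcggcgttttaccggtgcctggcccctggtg
Ndufa11, chr17:56717512-56717761, plus strand, 1 NRF1 match:
Ndufa11: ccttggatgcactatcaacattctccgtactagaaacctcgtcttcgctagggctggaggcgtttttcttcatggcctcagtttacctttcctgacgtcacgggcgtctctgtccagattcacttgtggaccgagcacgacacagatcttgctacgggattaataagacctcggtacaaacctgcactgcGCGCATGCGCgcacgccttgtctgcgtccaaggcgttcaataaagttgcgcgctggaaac
Sdhd, chr9:50603850-50604099, minus strand, 1 NRF1 and 1 ETS match:
Sdhd: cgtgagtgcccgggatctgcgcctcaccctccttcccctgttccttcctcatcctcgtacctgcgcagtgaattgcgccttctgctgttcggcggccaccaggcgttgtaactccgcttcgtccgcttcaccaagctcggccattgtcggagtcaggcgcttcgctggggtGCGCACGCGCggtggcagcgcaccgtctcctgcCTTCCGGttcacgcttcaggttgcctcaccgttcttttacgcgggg
Atp5g3, chr2:73911327-73911576, minus strand, 1 E-box and no NRF1 match:
Atp5g3: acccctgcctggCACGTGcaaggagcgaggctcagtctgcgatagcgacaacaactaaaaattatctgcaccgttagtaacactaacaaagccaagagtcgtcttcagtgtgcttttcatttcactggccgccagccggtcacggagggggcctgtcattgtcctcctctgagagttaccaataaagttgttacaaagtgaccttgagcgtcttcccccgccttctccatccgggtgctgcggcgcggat

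The main comparison set the 12 libraries with IL-13 against the 12 without, as the mean of the difference in 4 backgrounds. Nuclear genes of all 5 complexes rose with IL-13 by small amounts, and those on the mitochondrial genome did not. limma, fitted to log2(TPM + 1) of all tested genes with Benjamini-Hochberg adjustment, called 64 of the 103 tested genes higher (adjusted p under 0.05) and 3 lower. Among all tested genes 20.0% were called higher, 30.9% lower and 50.9% either way. The 64 were all nuclear, 64 of 90, with a median log2 difference of 0.14 over the 90, beside -0.05 over all tested genes. When libraries were scaled by the median of ratios the split over all genes became 3394 higher and 3421 lower, from 2644 and 4079, and for these 103 genes 64 higher and 1 lower. Nuclear members together took 0.911% to 1.06% of reads in libraries without IL-13 and 1.06% to 1.34% in those with it. Of the 90, 73 had a 95% interval that lay wholly within 1.25-fold of no change in either direction, against 52.7% of tested genes.

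**Figure D1:**
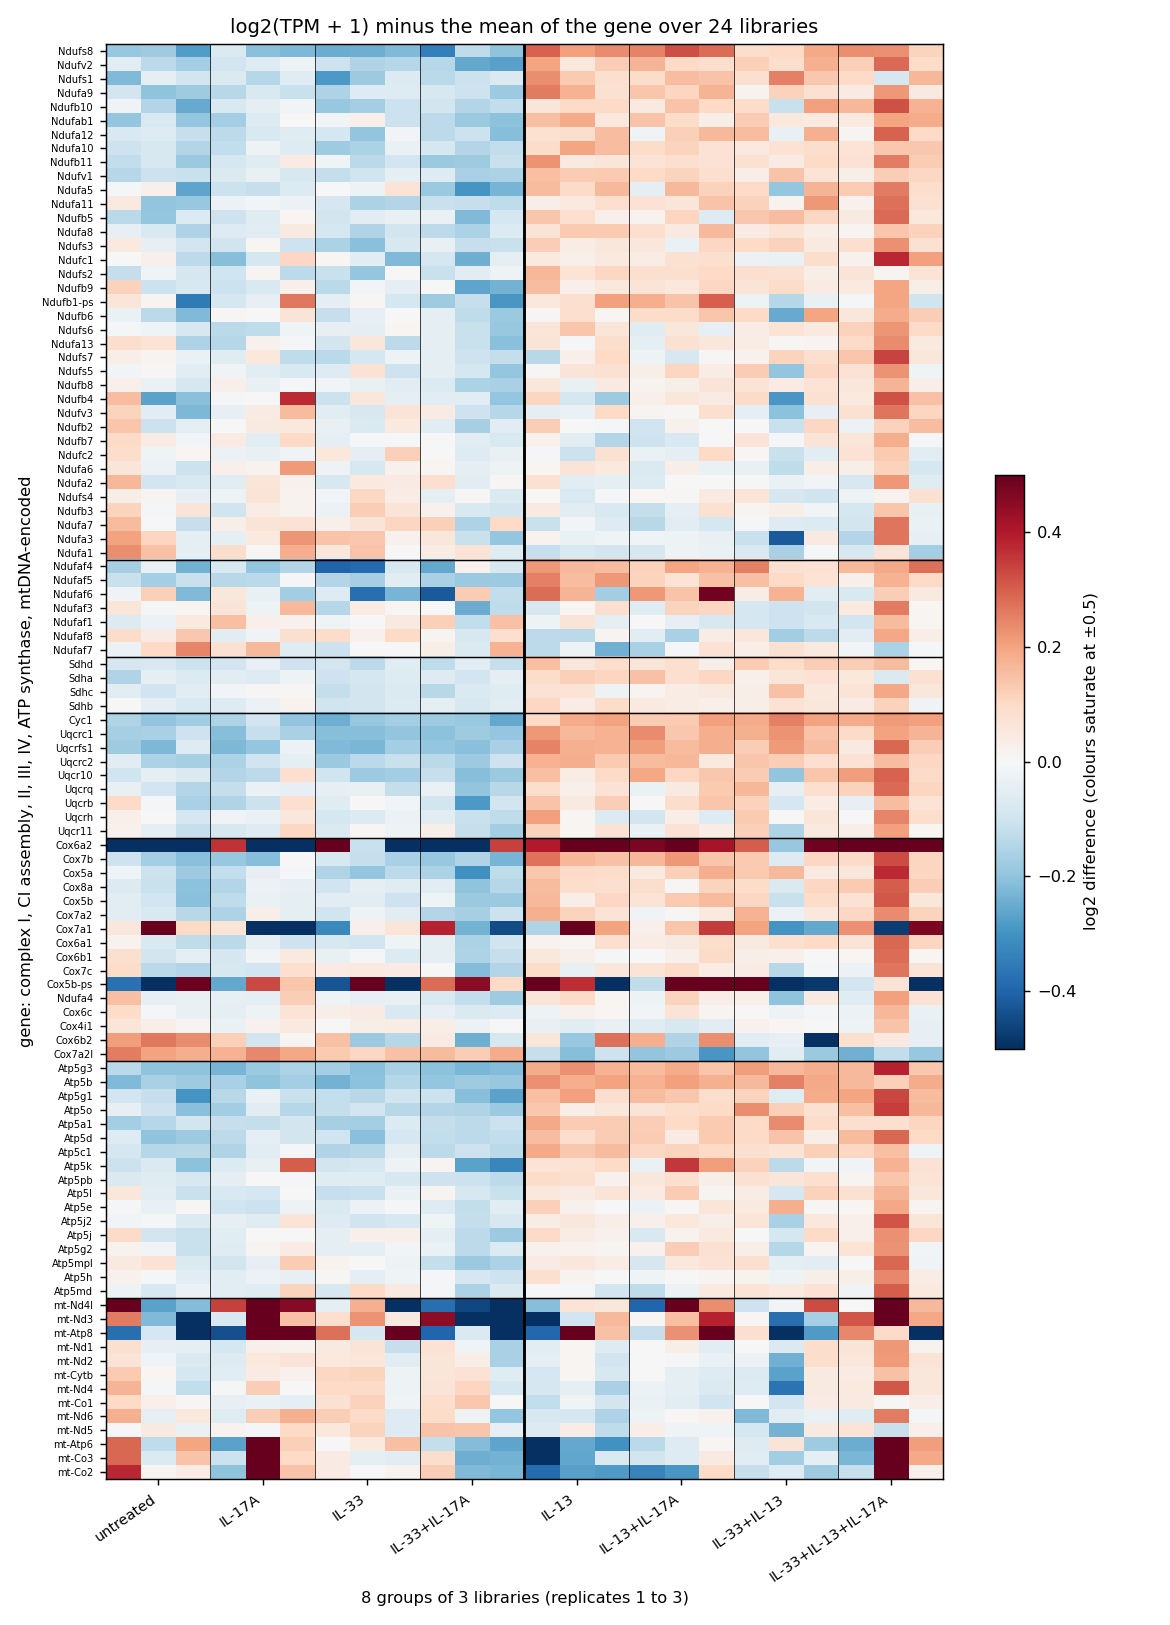
Log2(TPM + 1) of the 103 tested genes (rows, by complex) in the 24 libraries (columns, by group), each minus the mean of its gene; red is above and blue below that mean, with colours saturated at ±0.5. Most nuclear rows turn from blue to red at the thick line, where the 12 libraries with IL-13 begin, Cox7a2l turns the other way, and replicate 2 of IL-33+IL-13+IL-17A is red in most rows.

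Complex I, which holds the NADH-binding and iron-sulfur subunits of the entry point, had 25 of 37 genes called higher and 1 lower, with a median of 0.14. Ndufs8, a subunit that carries iron-sulfur clusters, lay at 72.6 to 87.7 TPM without IL-13 (median 79.4) and at 98.2 to 115.7 TPM with it (median 108.3). Its groups did not overlap, and the difference of 0.42 ± 0.03 (log2, SE) was the largest of complex I (limma adjusted p = 8.8e-11). Ndufv1, which binds NADH, went from 222 to 242 TPM (median 231) to 254 to 276 TPM (median 268) with no overlap, a difference of 0.20 ± 0.02 (limma adjusted p = 4.2e-09). Ndufv2, its neighbour in the NADH module, changed by 0.27 ± 0.03 (limma adjusted p = 4.5e-08). Ndufs1, the largest subunit of complex I, changed by 0.25 ± 0.03 (limma adjusted p = 4.4e-06), with exons that overlap Eef1b2 on the other strand.

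Not every complex I gene took part. Ndufa1, a small membrane-arm subunit, was the one called lower: it lay at 212 to 260 TPM without IL-13 (median 231) and at 197 to 231 TPM with it (median 210), so the groups overlapped. Its difference was -0.14 ± 0.03 (limma adjusted p = 0.0014), and this call was lost with median-ratio scaling (-0.09, limma adjusted p = 0.12) and with correction for GC content (-0.11, limma adjusted p = 0.070). The other 11 complex I genes lay between -0.09 and 0.06 without a call, among them the accessory subunits Ndufa3, Ndufa6, Ndufa7, Ndufb3 and Ndufb4. Complex I assembly factors act during construction and are not part of the finished enzyme. Of the 7 tested, Ndufaf4 (0.34 ± 0.04, limma adjusted p = 7.8e-07), Ndufaf5 (0.26 ± 0.03, limma adjusted p = 5.2e-07) and Ndufaf6 (0.23 ± 0.07, limma adjusted p = 0.013) rose. The other 4 lay between -0.09 and 0.03. Ndufaf4 went from 28.7 to 38.9 TPM to 40.3 to 46.5 TPM with no overlap.

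All 4 subunits of complex II, the succinate dehydrogenase that also belongs to the tricarboxylic acid cycle and has no mitochondrially encoded part, were called higher. Sdhd, a membrane anchor, lay at 219 to 233 TPM without IL-13 (median 225) and at 242 to 268 TPM with it (median 256). These ranges did not overlap, and the difference was 0.18 ± 0.02 (limma adjusted p = 3.4e-08). Sdha, the flavoprotein, changed by 0.15 ± 0.02, Sdhc, the other anchor, by 0.13 ± 0.02, and Sdhb, the iron-sulfur subunit, by 0.11 ± 0.02, with limma adjusted p of 9.2e-07, 1.8e-05 and 1.9e-05. Their ranges did overlap between the groups.

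In the main fit complex III was the only complex of more than 4 genes with every one called higher, 9 of 9, with a median of 0.23. With voom, and with no filter on low values, 8 of the 9 were called. Without the 3 libraries with the lowest slopes on transcript length, described below, 7 were. With length correction all 17 genes of ATP synthase were called higher as well. Cyc1, cytochrome c1, was at 486 to 543 TPM in the libraries without IL-13 (median 510) and at 622 to 690 TPM with it (median 663). The 2 sets were apart, and the difference was 0.37 ± 0.02 (limma adjusted p = 6.6e-13). Uqcrc1, a core subunit, went from 165 to 178 TPM (median 168) to 205 to 225 TPM (median 216), again without overlap, a difference of 0.35 ± 0.02 (limma adjusted p = 1.1e-12). Uqcrfs1, the Rieske iron-sulfur protein, changed by 0.35 ± 0.03 (limma adjusted p = 2.8e-09) and Uqcrc2, the partner core subunit, by 0.26 ± 0.02 (limma adjusted p = 3.4e-09). The small subunits Uqcrh and Uqcr11 changed least, by 0.09 ± 0.03 and 0.09 ± 0.04 (limma adjusted p = 0.026 and 0.046).

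**Figure D2:**
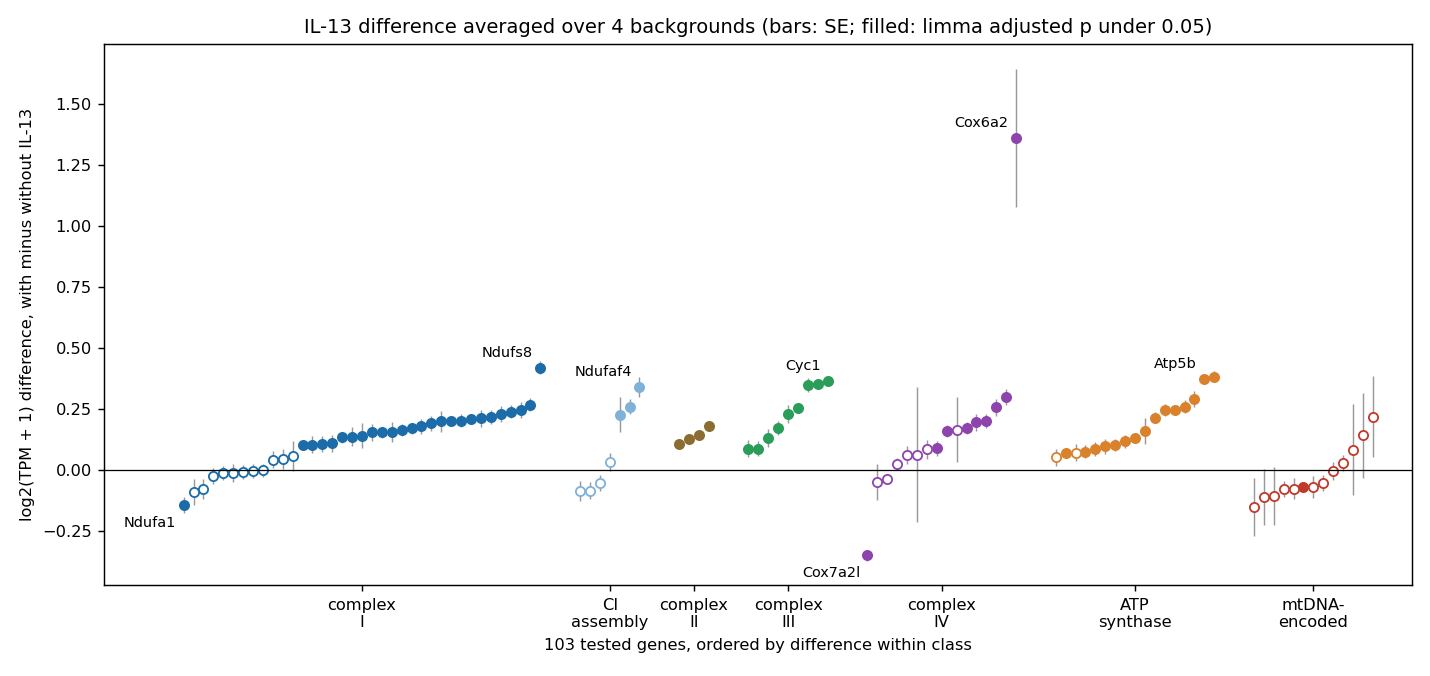
Difference in log2(TPM + 1) between the 12 libraries with and the 12 without IL-13 for each of the 103 tested genes, by complex and ordered by size; points are means over 4 backgrounds, bars the SE, and filled points had a limma adjusted p under 0.05. All 9 complex III genes lie above 0, as do all 17 of ATP synthase, Cox7a2l is the lowest point at -0.35, and Cox6a2, the highest, rests on at most 11 reads.

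In complex IV, cytochrome oxidase, 8 of 16 genes were called higher and 1 lower. Cox5a, a matrix-side subunit, lay at 97.3 to 119.8 TPM without IL-13 (median 110.2) and at 124 to 156 TPM with it (median 130). It was the only one of complex IV in which all 12 libraries with IL-13 were above all 12 without, with a difference of 0.26 ± 0.03 (limma adjusted p = 2.7e-06). Cox7b (0.30 ± 0.03), Cox8a (0.20 ± 0.03), Cox5b (0.20 ± 0.03), Cox7a2 (0.17 ± 0.03), Cox6a1 (0.16 ± 0.02) and Cox6b1 (0.09 ± 0.03) were called higher as well, with limma adjusted p from 2.1e-07 for Cox7b to 0.016 for Cox6b1. By reads per transcript length, a scale given below, Cox4i1 was the highest nuclear subunit of complex IV, though Cox8a was higher in deposited TPM. Cox4i1 was at 676 to 722 TPM without IL-13 (median 705) and at 656 to 766 TPM with it (median 675). These ranges overlap, and its difference was -0.04 ± 0.02 (limma adjusted p = 0.10). Without replicate 2 of IL-33+IL-13+IL-17A it was called lower (-0.05, limma adjusted p = 0.00079). Cox6c (0.02 ± 0.02) and Ndufa4 (0.06 ± 0.04) were not called, though Ndufa4 was called higher without replicate 2 of IL-33+IL-13 (0.08, limma adjusted p = 0.047). Cox7c (0.09 ± 0.04, limma adjusted p = 0.072) was called higher only when length was corrected, alone (0.12, limma adjusted p = 0.0084), with GC or by gene span, or when 1 of 5 libraries was left out.

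Cox7a2l, known as a factor for supercomplexes of complexes III and IV, went against the rest. Whether its product has that role in cells of this strain was not tested. It lay at 84.7 to 94.1 TPM in the 12 libraries without IL-13 (median 89.2) and at 64.1 to 75.6 TPM in the 12 with it (median 68.9). Every library with IL-13 was below every one without, which held for 8.87% of tested genes, and the difference was -0.35 ± 0.02 (limma adjusted p = 6.7e-11). By group it was 91.4 ± 2.4 TPM untreated and 71.2 ± 3.0 with IL-13, 90.7 ± 2.2 with IL-17A and 67.3 ± 2.8 with IL-13+IL-17A, 86.0 ± 1.2 with IL-33 and 71.1 ± 3.9 with IL-33+IL-13, and 87.8 ± 1.9 with IL-33+IL-17A and 69.2 ± 2.8 with all 3 (SD, n = 3 each).

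The tissue isoforms of complex IV were at the edge of detection. Cox6a2, the heart and muscle form of Cox6a1, had 0 to 11 reads per library and none in 3, at 0 to 6.32 TPM without IL-13 and 2.15 to 10.4 TPM with it. Its difference of 1.36 ± 0.28 was the largest of all members (limma adjusted p = 0.00047), and its exons overlap Itgad on the other strand. The groups overlapped, and how strand was handled in counting is not given in the sources used here. Cox7a1, the muscle form of Cox7a2, had 8 to 22 reads (0.17 ± 0.13, limma adjusted p = 0.32), Cox6b2, the testis form of Cox6b1, had 28 to 58 reads (-0.05 ± 0.08, limma adjusted p = 0.64), and Cox5b-ps, a copy of Cox5b annotated as protein-coding, had 2 to 10 reads.

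ATP synthase, which uses the proton gradient, had 15 of 17 genes called higher and none called lower, with a median of 0.13. Atp5b, the catalytic beta subunit, was at 1313 ± 28 TPM untreated and 1724 ± 28 with IL-13, at 1322 ± 19 with IL-17A and 1700 ± 21 with IL-13+IL-17A, at 1308 ± 44 with IL-33 and 1721 ± 53 with IL-33+IL-13, and at 1315 ± 8 with IL-33+IL-17A and 1666 ± 38 with all 3 (SD, n = 3 each). The libraries with IL-13, from 1625 TPM, were all above those without, which reached 1356 TPM. Its difference of 0.37 ± 0.01 had the smallest adjusted p of all members (limma, 1.5e-14). Atp5g3, a c-ring gene, changed by 0.38 ± 0.02 (limma adjusted p = 2.5e-11) and Atp5g1, another c-ring gene, by 0.29 ± 0.03 (limma adjusted p = 2.9e-07). Atp5a1, the alpha subunit that alternates with beta, went from 856 to 917 TPM to 1017 to 1133 TPM, 0.25 ± 0.02 (limma adjusted p = 2.5e-10). Atp5mpl and Atp5md, small membrane subunits, were not called (0.07 ± 0.04 and 0.05 ± 0.04).

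**Figure D3:**
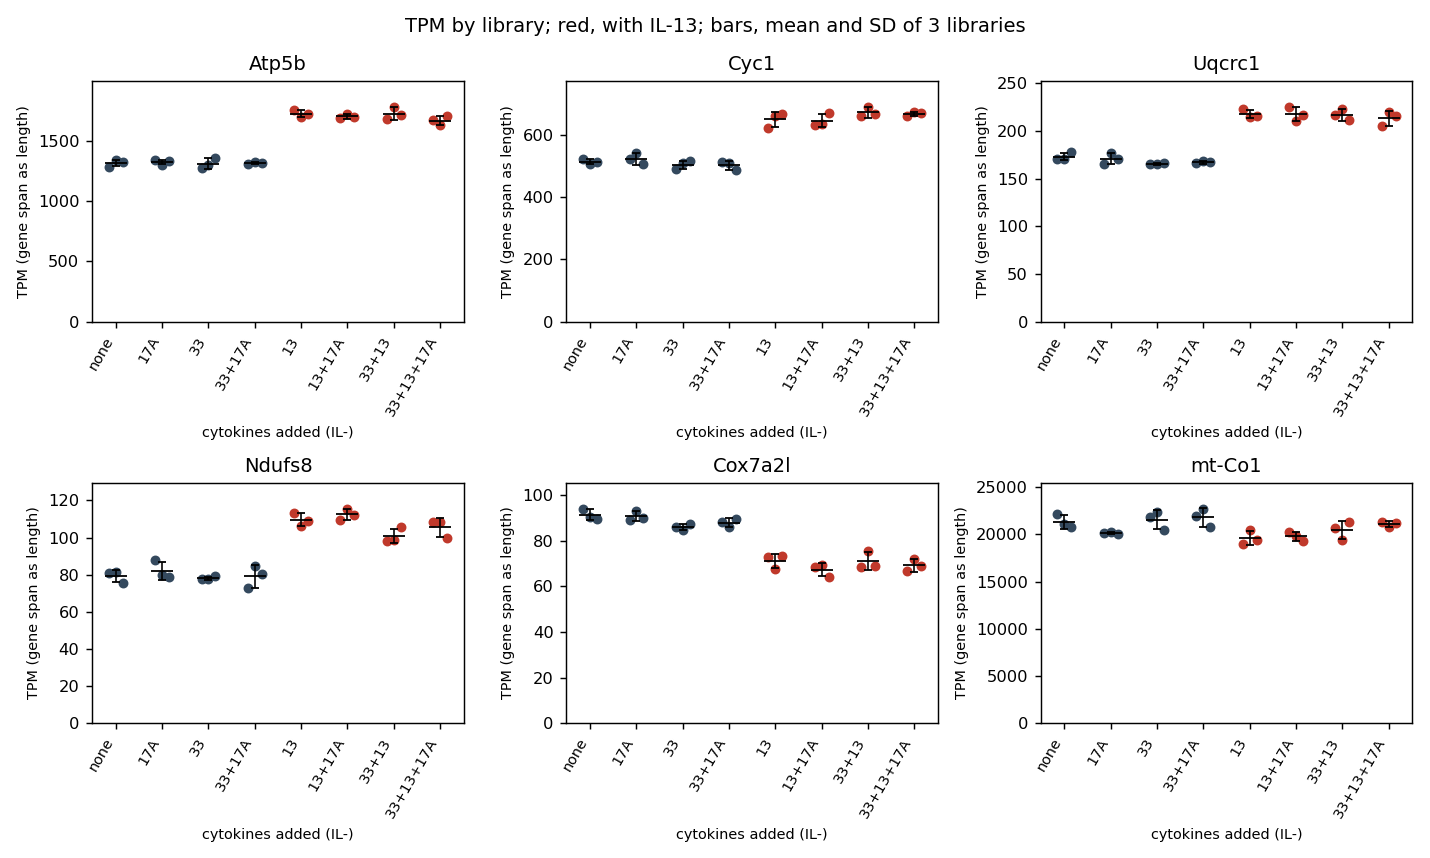
TPM in each library (points) for 6 members, with the mean and SD of each group of 3; red groups had IL-13 and the axes start at 0. Atp5b, Cyc1, Uqcrc1 and Ndufs8 have every red point above every dark one, Cox7a2l has every red point below, and the points of mt-Co1 overlap.

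Counted across complexes, 21 genes had all 12 libraries with IL-13 above all 12 without, where 6.18% of tested genes did. They were 7 of complex I (Ndufa9, Ndufa10, Ndufab1, Ndufb11, Ndufs8, Ndufv1, Ndufv2), 2 assembly factors (Ndufaf4, Ndufaf5), Sdhd, 4 of complex III (Cyc1, Uqcrc1, Uqcrc2, Uqcrfs1), Cox5a and 6 of ATP synthase (Atp5a1, Atp5b, Atp5d, Atp5g3, Atp5o, Atp5pb). Of the genes named, Atp5a1, Atp5d, Atp5o, Atp5pb, Cox5a, Ndufa9, Ndufab1, Ndufb11 and Uqcrc2 have exons that overlap a gene on the other strand.

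The mitochondrially encoded genes did not share the rise: 0 of 13 were called higher, 1 was called lower, and their median was -0.07. The level of mt-Co1, the catalytic core of complex IV, was 19995 to 22730 TPM without IL-13 (median 20919) and 18980 to 21332 TPM with it (median 20308). The ranges overlapped. Its difference of -0.07 ± 0.02 was called (limma adjusted p = 0.0073), but with median-ratio scaling it was -0.02 (limma adjusted p = 0.70) and with voom on recovered reads -0.05 (limma adjusted p = 0.15). The level of mt-Cytb, the core of complex III, was 11227 to 13066 TPM without IL-13 (median 12197) and 9916 to 13213 TPM with it (median 11741), a difference of -0.05 ± 0.03 (limma adjusted p = 0.20). The complex I subunits mt-Nd1 (0.03 ± 0.03), mt-Nd2 (-0.00 ± 0.04), mt-Nd4 (-0.07 ± 0.05), mt-Nd5 (-0.08 ± 0.03) and mt-Nd6 (-0.08 ± 0.04) were not called. Under median-ratio scaling the median of the 13 was -0.02 and with GC correction 0.01, so no direction is given for the set. The 13 mRNAs took 0.801% to 0.968% of reads without IL-13 and 0.740% to 1.04% with it.

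The values of mt-Co2, mt-Co3, mt-Atp6, mt-Atp8, mt-Nd3 and mt-Nd4l are uncertain. Beside a mean of 33106 reads for mt-Co1, mt-Co2 had 369, mt-Co3 321, mt-Atp6 211, mt-Nd3 25.1, mt-Nd4l 19.5 and mt-Atp8 9.25. A run of 7 pseudogenes on chromosome 1, from 24611535 to 24616197 on mm10, carries a near-identical copy of this stretch of the mitochondrial genome. The copies held reads on a like scale: 452 for Gm28661, 340 for Gm28437 and 207 for Gm10925. How reads that match both places were assigned is likewise unstated. The 6 differences lay between -0.15 and 0.22 with SE of 0.11 to 0.19, and none was called.

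The IL-13 difference was also read in 4 backgrounds whose comparisons share no library. IL-13 against untreated called 38 of 103 genes higher and 4 lower, where 14.1% of tested genes were called higher and 15.7% lower. IL-13+IL-17A against IL-17A called 28 higher and 1 lower (12.2% and 17.6% of tested genes). IL-33+IL-13 against IL-33 called 34 higher and 1 lower (11.2% and 12.8%). IL-33+IL-13+IL-17A against IL-33+IL-17A called 64 higher and 1 lower (11% and 21.7%). Leaving out 1 library at a time gave 30 to 37, 21 to 25, 26 to 38 and 47 to 68 genes called higher in the same order, with 47 in the last without replicate 2 of IL-33+IL-13+IL-17A. The last count was 26 when only the 6 libraries of that comparison were fitted. Title numbers were out of order in 4 libraries of the series, and no group without IL-33 held one. They were replicate 3 of IL-33, replicates 2 and 3 of IL-33+IL-17A and replicate 3 of IL-33+IL-13+IL-17A. In those IL-33+IL-17A libraries the nuclear members stood at -0.128 and -0.124 from their means (median log2). A fit without the 4 leaves 1 library of IL-33+IL-17A. The labels do not say what the numbering marks. Over the 4 backgrounds 61 genes, all nuclear, had a difference above 0 each time, which 20.4% of tested genes did, and 20 were called higher each time, which 6.72% did. Below 0 each time were 4 genes (34.7% of tested genes): Cox7a2l, Ndufa1, mt-Co1 and mt-Nd5.

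Those 20 were Ndufa8, Ndufa9, Ndufa10, Ndufs8, Ndufv1, Ndufv2, Ndufaf4, Ndufaf5, Sdhd, Cyc1, Uqcrc1, Uqcrc2, Uqcrfs1, Atp5a1, Atp5b, Atp5c1, Atp5d, Atp5g1, Atp5g3 and Atp5o, with none of complex IV. For Cyc1 the differences were 0.34 alone, 0.30 beside IL-17A, 0.41 beside IL-33 and 0.41 beside both. For Uqcrc1 they were 0.33, 0.35, 0.39 and 0.35, and for Ndufs8 0.46, 0.45, 0.36 and 0.41 in the same order. Cox7a2l, the only one called lower in all 4, where 8.76% of tested genes were, had -0.36, -0.43, -0.27 and -0.34. No mitochondrially encoded gene was above 0 in all 4. mt-Co1 was called lower against untreated (-0.12, limma adjusted p = 0.025) and in no other background. mt-Nd4l, on 5 to 33 reads, was called higher beside IL-33 and IL-17A (1.07, limma adjusted p = 0.018).

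**Figure D4:**
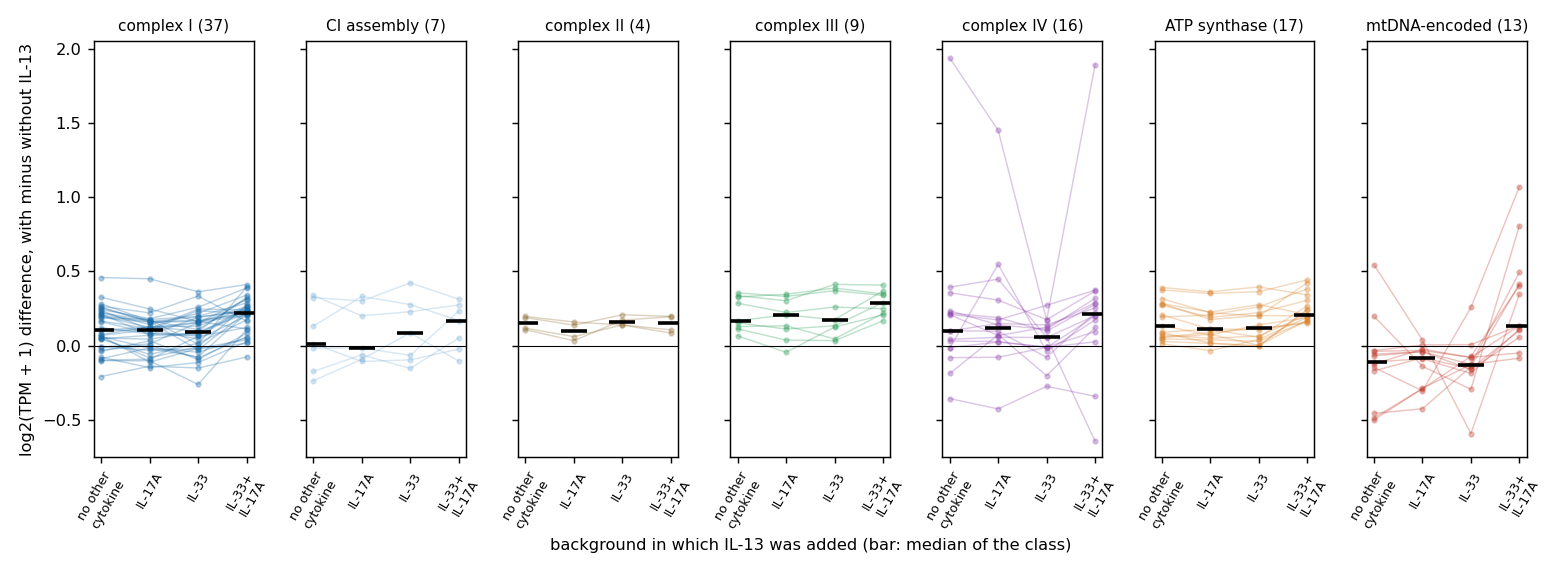
IL-13 difference in log2(TPM + 1) of each tested gene (thin lines) in the 4 backgrounds along the horizontal axis, in a panel per class with its number of genes; black bars are class medians. Complexes II and III and ATP synthase lie at or above about 0 throughout, and the mitochondrially encoded genes scatter around 0 and sit higher in the last background, the one that holds replicate 2 of IL-33+IL-13+IL-17A.

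The combinations with IL-13 were also set against untreated cells, which they share as controls. IL-13+IL-17A had 37 higher and 3 lower (14% and 15.5% of tested genes), IL-33+IL-13 had 37 and 3 (11.1% and 14%) and IL-33+IL-13+IL-17A had 44 and 1 (10.3% and 17.7%). Atp5b differed from untreated by 0.37, 0.39 and 0.34 and Cyc1 by 0.33, 0.39 and 0.38 in the 3 combinations. Cox7a2l differed by -0.44, -0.36 and -0.40. Each of these 9 differences was called (limma adjusted p of 3.1e-06 or below).

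Neither IL-33 nor IL-17A had a called effect on these genes. IL-33 averaged over 4 backgrounds called 0 of 103, while 2.64% of tested genes were called, and 6 of the 103 had an unadjusted p under 0.05. The smallest was mt-Co1, at 0.07 ± 0.02 (limma adjusted p = 0.073), and the median of the nuclear genes was -0.01. The 95% interval lay within 1.25-fold of no change for 86 of the 90 nuclear genes, against 77.9% of tested genes. IL-17A averaged over 4 backgrounds called 0 of 103 and 0% of tested genes, with 2 of the 103 at an unadjusted p under 0.05, and for 87 of the 90 nuclear genes the interval lay within 1.25-fold, against 79.5% of tested genes. Against untreated cells IL-33, IL-17A and IL-33+IL-17A each called 0 of 103 and 0% of tested genes, with 2, 2 and 4 of the 103 at an unadjusted p under 0.05. IL-33 added to IL-13 called 0 of 103 (2.57% of tested genes, 3 of the 103 at an unadjusted p under 0.05), and added to IL-13+IL-17A it called 0 (3.55%, 11 of the 103). voom on recovered reads also called 0 of these genes in each of these 7 comparisons. For the counts at an unadjusted p under 0.05 the share of all tested genes is not given here.

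Whether the IL-13 difference itself changed beside another cytokine was tested by interaction terms. The term for IL-13 and IL-33 called 1 of 103, where 3.57% of tested genes were called and 1.46% with a positive sign as here: Ndufb7, a complex I accessory subunit. Its levels were 249 ± 9 TPM untreated and 232 ± 13 with IL-13, 247 ± 13 with IL-17A and 232 ± 9 with IL-13+IL-17A, 238 ± 4 with IL-33 and 249 ± 7 with IL-33+IL-13, and 235 ± 6 with IL-33+IL-17A and 256 ± 17 with all 3 (SD, n = 3 each). The means with IL-13 were thus lower without IL-33 and higher with it, and the IL-13 difference was greater by 0.19 ± 0.05 beside IL-33 (limma adjusted p = 0.046). That call was lost with median-ratio scaling, voom, GC correction, length with GC correction and span correction and without the 4 libraries numbered out of order, and none of the 103 was called higher in 17 of 24 fits that left out 1 library. The terms for IL-13 and IL-17A and for IL-33 and IL-17A called 0 of 103 and 0% of tested genes, with 2 and 0 of the 103 at an unadjusted p under 0.05, and voom called 0 in both.

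Transcript length was checked because these mRNAs are short. The median transcript of the nuclear members had 680 bases, beside 1821 for tested genes, which makes the set sensitive to any library that favours short transcripts. In each library the deviation of each gene from its mean over 24 libraries was set against log2 transcript length. The slope was lowest in replicate 2 of IL-33+IL-13+IL-17A, at -0.135 per doubling of length. Next came replicate 2 of IL-17A at -0.0734 and replicate 1 of untreated at -0.0538, while the highest was 0.0655 in replicate 2 of IL-33+IL-17A. In that triple-cytokine library the nuclear members stood 0.21 above their means (median log2) and the mitochondrially encoded genes 0.26, against 0.05 and 0.07 for nuclear members in the other 2 libraries of its group. Cytosolic ribosomal protein genes, also short, stood 0.17 above there, whereas 2515 other genes of the same length range (546 to 1001 bases) stood at -0.01 and all tested genes at -0.16.

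The IL-13 difference was as large after the length trend of each library was removed. This correction subtracted the whole fitted curve of a library, so it recentred the library as well. With length correction 68 of the 103 genes were called higher and 2 lower, and the median of the nuclear members was 0.18. The calls over all tested genes moved to 3610 higher and 3544 lower. Median-ratio scaling, which recentres libraries without regard to length, gave a nuclear median of 0.19. Without replicate 2 of IL-33+IL-13+IL-17A, replicate 2 of IL-17A and replicate 1 of untreated, 60 were called higher and 6 lower, beside 2763 and 4384 of all tested genes. Those libraries had the lowest slopes, and the one with the highest slope, replicate 2 of IL-33+IL-17A, was kept. The 2515 other genes of that length had 491 called higher and 674 lower, with a median of -0.03. Cytosolic ribosomal protein genes had 50 of 82 called higher and 4 lower with a median of 0.09. In every library with IL-13 the median of the nuclear members was above that of every library without it. The margin was narrow before correction (-0.0035 against -0.0055 for the nearest pair). It was wider after length correction (0.0067 against -0.0337), which includes the recentring.

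**Figure D5:**
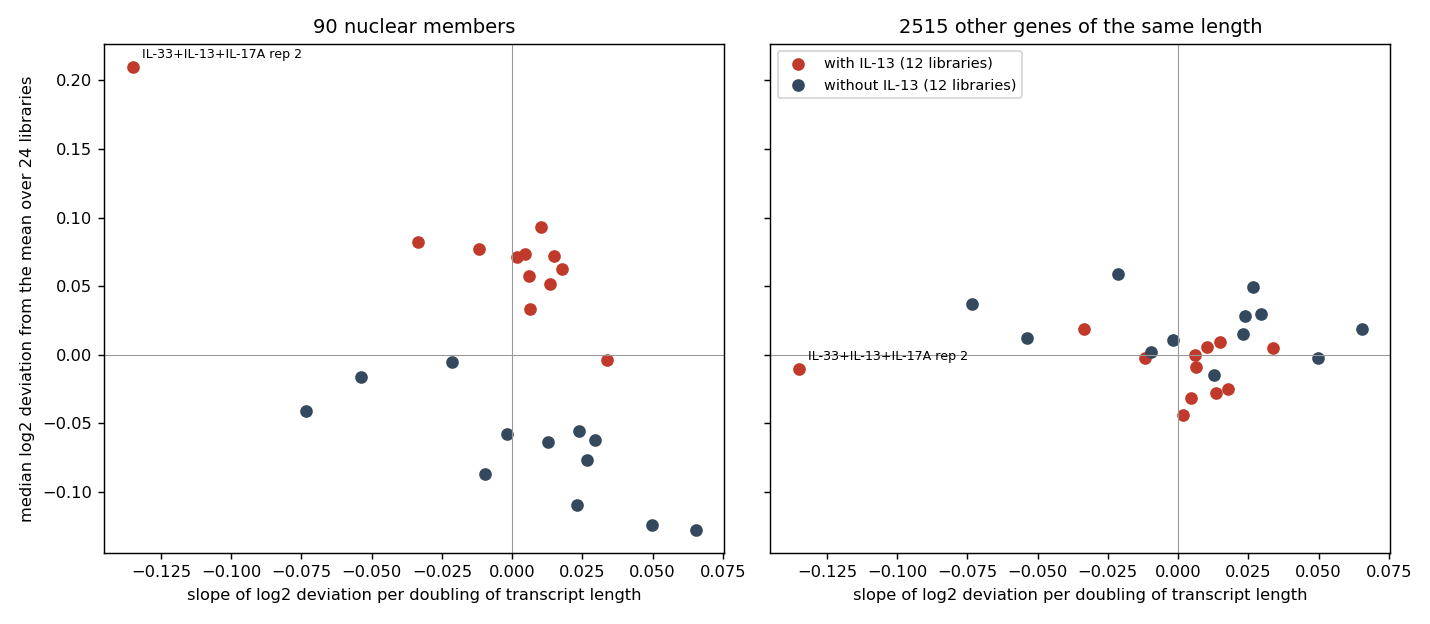
Per library, the median log2 deviation of a gene set from its mean over 24 libraries against the slope of deviation on transcript length, for the 90 tested nuclear members (left) and 2515 other genes of the same length (right); red libraries had IL-13. On the left the red points lie above the dark ones at like slopes, replicate 2 of IL-33+IL-13+IL-17A is far off at a slope of -0.135, and on the right the 2 colours mix.

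To compare genes with each other, recovered reads were divided by transcript length and scaled to the same sum in every library, since the deposited TPM divide by the gene span. On that scale mt-Co1 was highest, at a mean of 3051 (6932 with the union of exons as length), followed by mt-Nd1 at 2036 and mt-Cytb at 1763. The highest nuclear genes were Atp5b at 825, Cox4i1 at 820 and Uqcrc1 at 692, of which Uqcrc1 fell to 203 with the union of exons as length. The lowest nuclear subunits were Cox6a2, Cox5b-ps and Cox7a1, at 0.708, 1.77 and 4.51, and the assembly factors lay at 9.0 to 44.1, below the median of every complex. The summed level of the nuclear members was 18783 ± 728 in the 12 libraries without IL-13 and 20886 ± 1134 in the 12 with it (SD).

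Genes that feed the chain, and those that build it, were read from lists by function. Beside the counts below, 20.0% of all tested genes were called higher with IL-13 and 30.9% lower. Of 20 genes of the tricarboxylic acid cycle and pyruvate entry, 17 were called higher with IL-13 and 2 lower, with a median of 0.19. Idh3a, the catalytic subunit of NAD-dependent isocitrate dehydrogenase, rose by 0.72 ± 0.02 (log2, SE) from 35.2 ± 1.1 TPM to 58.5 ± 2.7 TPM (SD, n = 12 each; limma adjusted p = 1.9e-15). Among 22 tested electron carriers and other inputs 14 were higher and 3 lower. Cycs, cytochrome c, which links complexes III and IV, rose by 0.51 ± 0.03 from 202 ± 9 TPM to 288 ± 18 TPM (limma adjusted p = 4.5e-11), more than any complex III or IV subunit except Cox6a2. Slc25a5, the main ADP/ATP carrier here, rose by 0.31 ± 0.02 (limma adjusted p = 1.1e-11). Mitochondrial ribosomal proteins, which make the mitochondrially encoded subunits, had 48 of 78 higher and 5 lower, and import channel genes had 11 of 23 higher and 3 lower, led by Tomm40 (0.37 ± 0.02, limma adjusted p = 1.9e-12).

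Other assembly factors were mixed, with 12 of 41 higher, 8 lower and a median of 0.03, beside 20.0% higher and 30.9% lower among all tested genes. Tmem70, which assembles ATP synthase, rose by 0.25 ± 0.03 (limma adjusted p = 1.5e-07), and Coa4, linked to complex IV, fell by 0.39 on the log2 scale (limma adjusted p = 1.2e-07). Regulators of mitochondrial biogenesis and mitochondrial DNA expression had 7 of 22 higher and 2 called lower, with a median of -0.00. Myc rose by 1.40 ± 0.04 from 43.4 ± 3.4 TPM to 116 ± 7 TPM (limma adjusted p = 1.6e-16), and Polg, the mitochondrial DNA polymerase, fell by 0.84 on the log2 scale (limma adjusted p = 7.4e-11). Nrf1, Tfam and Esrra were not called, at -0.03 ± 0.04, -0.06 ± 0.04 and 0.04 ± 0.04.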

How the data were processed

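RNA of alveolar macrophages was sequenced on an Illumina NovaSeq as 24 libraries. The submitters' processing notes name the aligner STAR and the build mm10. No version, counting tool or strand setting is given in the sources used here. The authors deposited TPM per gene, and the deposited length, tested on the files, equals the gene span with introns for all 104 members.

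From the TPM, log2(TPM + 1) was fitted with limma 3.58.1 (R 4.3.3, trend on mean expression) over all 13215 genes with at least 1 TPM in 3 libraries, with 8 group means and Benjamini-Hochberg adjustment over all of them, and calls were made at 0.05. Fold changes on this scale understate low genes. Reads were recovered from TPM steps (89.9% to 91.4% of values up to 20 reads were whole within 0.05). They came to 9.13 to 12.89 M reads in deposited genes per library, and served levels per transcript length and limma's voom. Scripts were tested on simulated data.

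Alternatives were other pseudocounts, filters and scaling, voom, corrections for length, GC and span, fits of only the groups compared, and fits without single or doubted libraries. The members, lists and comparisons were chosen with earlier results of these data known. Named were the 8 largest called changes each way with IL-13, up to 6 called members elsewhere, the smallest p of each class, a fixed set of subunits, and up to 3 called genes per other list. Further genes were named after their values were seen.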

Additional observations from a re-analysis of the deposited data

Results flagged for a closer look

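Ndufb7, an accessory subunit of complex I, stood out because its IL-13 difference was not the same with and without IL-33, by a test of that difference. The log2 difference with IL-13 was 0.19 greater in the presence of IL-33 (SE 0.05, 95% interval 0.08 to 0.29, limma adjusted p = 0.046 over all 13215 tested genes). Group means were lower with IL-13 in both pairs without IL-33 (249 to 232 and 247 to 232 TPM) and higher in both pairs with it (238 to 249 and 235 to 256 TPM). Of the 103 tested genes 14 had an unadjusted p under 0.05 for this term, and no other passed the adjusted threshold. The share of all tested genes at that unadjusted p is not given here, so the 14 cannot be set against it. Ndufs7, an iron-sulfur subunit of complex I, came next at 0.21 (SE 0.07, limma adjusted p = 0.095). The call for Ndufb7 was lost under 6 alternatives (5 of processing and 1 without the 4 libraries numbered out of order) and in 17 of 24 fits that left out 1 library, and the cause of the difference was not tested.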

How the results depend on the processing

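The count of genes higher with IL-13 (64) was 60 to 69 over the alternatives run, apart from the fit without the 4 libraries numbered out of order. That fit, with 1 library left in IL-33+IL-17A, gave the lowest count of all. Its median for the nuclear genes was 0.13, beside 0.14 in the main fit. Of 1504 alternative values of the averaged IL-13 difference of 43 named genes, 1473 kept direction and side of the threshold. A call was lost in 9 and gained in 21, and 1 value reversed. The reversed value was of Ndufb7 averaged over backgrounds, -0.00 as reported and uncalled, and 0.080 with length and GC correction. The counts of genes called lower are small and moved most. With IL-13 averaged (3) it was 1 with median-ratio scaling, 1 with GC correction and 6 without the 3 libraries with the lowest slopes on transcript length. Against untreated, IL-13 (4) gave 2 with median-ratio scaling, voom, length, GC and span correction, and IL-13+IL-17A (3) gave 1 with the first 4 of these. Fits of only the groups compared gave 1 for IL-33+IL-13 against untreated (3), 2 for IL-13+IL-17A against IL-17A (1; 4 without the 3 libraries) and 2 for IL-33+IL-13 against IL-33 (1; also 2 without the 4 libraries numbered out of order).

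Counts called higher moved as follows. With voom, IL-13+IL-17A against untreated (37) gave 24 and IL-33+IL-13 against untreated (37) gave 23. With only the groups compared, the latter gave 23, IL-33+IL-13+IL-17A against untreated (44) gave 21 and against IL-33+IL-17A (64) gave 26. IL-13+IL-17A against IL-17A (28) gave 45 with length correction and 45 with length and GC. IL-33 averaged (0) gave 1 with length, with length and GC and with span correction. IL-33+IL-13+IL-17A against IL-13+IL-17A (0) gave 1 with length and 2 with length and GC correction. The interaction of IL-13 and IL-33 (1) gave 0 with median-ratio scaling, voom, GC, length and GC, and span correction and without the 4 libraries. The median level per length of nuclear members (181) was 202.2 with the union of exons and 199.2 with the principal transcript as length.

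Leaving out 1 library at a time, the number called higher ranged from 0 to 1 for IL-33 averaged, from 24 (without untreated replicate 3) to 38 for IL-33+IL-13 against untreated, from 0 to 2 for IL-33+IL-13+IL-17A against IL-13+IL-17A (2 without replicate 3 of the former) and from 0 to 2 for the interaction. The number called lower ranged from 3 to 8 with IL-13 averaged (8 without replicate 2 of IL-33+IL-13+IL-17A, 6 without replicate 2 of IL-33+IL-17A), from 1 to 4 for IL-13 and for IL-13+IL-17A against untreated, from 1 to 3 for IL-33+IL-13 (1 without untreated replicate 2) and for IL-33+IL-13+IL-17A against untreated (3 without its replicate 2), and from 1 to 3 for IL-33+IL-13 against IL-33 (3 without replicate 3 of the former). The mt-Nd5 call was gained without any of 5 libraries, and those of mt-Co2 and mt-Nd6 without replicate 2 of IL-33+IL-13+IL-17A. The corrections for span and for length with GC, and the principal transcript as length, were chosen after seeing the data. No paired analysis was possible because the labels number libraries only within the series and share no replicate number across groups. Read depth limits the 6 scarce mitochondrial mRNAs, Cox6a2, Cox7a1 and Cox5b-ps. The cause of these changes was not tested.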
